A study of Mus musculus with 5 samples.

Results

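Signalling of the interleukin-6 family was read through 7 genes in mouse liver: the ligand gene Osm, the receptor genes Il6ra, Il6st, Osmr and Lifr, the transcription factor gene Stat3 and the feedback inhibitor gene Socs3. The members were named by symbol and matched in the gene column of the count tables, 7 of 31053 genes listed. They were read in 5691 hepatocytes and 3651 leukocytes from 5 libraries. A barcode was taken as a hepatocyte when it held at least 5000 UMIs (unique molecular identifiers, each marking 1 captured transcript), had 10% to 30% of them from mitochondrial genes and had at least 1% from Alb, Apoa1 and Ttr. A barcode was taken as a leukocyte when it held at least 1000 UMIs and 500 genes, had under 10% mitochondrial UMIs and had at least 3 UMIs of Ptprc, Coro1a and Laptm5.

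The cells came from livers of C57BL/6J mice, freed by perfusion, cleared of dead cells with a removal kit and captured with 10x v3 chemistry. There was 1 library each for untreated pups at postnatal day 14 (P14), for an adult control, and for adults 24 h, 48 h and 96 h after surgical removal of 2/3 of the liver (partial hepatectomy, PHx) at 8 weeks of age. The sex and number of the mice were not given in the sources used here. The treatment text counts the adult control among the operated samples, whereas its title calls it a control and it carries no treatment label, and no sham operation is named. With 1 library per group no difference could be tested: every interval below is a 95% interval for counting error only, and differences between mice, preparations and groups cannot be told apart.

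Cytokines of the interleukin-6 family signal through receptor pairs that share gp130, the protein made from Il6st. Interleukin-6 itself binds the receptor made from Il6ra, leukemia inhibitory factor binds the one from Lifr and oncostatin M binds the one from Osmr; each complex activates the kinases of the JAK group, which phosphorylate STAT3. In hepatocytes STAT3 switches on acute-phase genes, whose products are secreted into blood, and also Socs3, whose product binds gp130 and the JAK kinases and shuts the signal down.

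In the GRCm38 assembly with GENCODE M21 genes, Osm lay at chr11:4236420-4241026 on the plus strand, Stat3 at chr11:100885098-100939540 on the minus strand and Socs3 at chr11:117966079-117970047 on the minus strand. Osmr (chr15:6813577-6874969, minus) and Lifr (chr15:7090614-7197489, plus) were neighbours on chromosome 15. Il6ra lay at chr3:89864059-89913196 on the minus strand and Il6st at chr13:112464070-112510086 on the plus strand.

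Because STAT3 binds a palindromic motif, TTCNNNGAA was searched in the RefSeq promoter windows of GRCm38.p6, each from 250 bases before to 50 after a transcription start. The palindrome makes a search of 1 strand cover both. It was found in 2726 of 32851 windows (8.30%). Windows were matched for 6 of the 7 members, and 1 of their 7 windows held the motif, that of Socs3. Among the STAT3 target genes described below, windows were matched for 27 of 32. Of their 33 windows 5 held the motif (15.2%), at 5 genes. Of these matches, 5 are shown because they lie at the feedback gene and at companion targets, and that of the target Hamp is left out. Capitals mark the motif, and each line reads 5′ to 3′ on the strand of the gene.
Socs3, chr11:117969502-117969530, minus strand: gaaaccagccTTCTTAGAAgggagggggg
Fga, chr3:83025909-83025937, plus strand: aggcccccatTTCCTGGAAtgtagattcc
Fgb, chr3:83050007-83050035, minus strand: gactcaatgaTTCGAGGAAccccctgtgt
Steap4, chr5:7960346-7960374, plus strand: ggttgaactcTTCCCGGAAactttgcttc
Itih4, chr14:30886415-30886443, plus strand: aaacctgcatTTCCGAGAActtgcaccag
The motif began 154 bases before the RefSeq start of Socs3, and between 51 bases (Itih4) and 234 bases (Fga) before the starts of the others shown. The GENCODE gene model of Socs3 starts further upstream, so that this match lies inside that model, and its promoter window overlaps a GENCODE exon. A match is a description of these letters and not a binding site.

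The libraries held 80927744 to 136110607 UMIs. Hepatocytes numbered 2106, 925, 1170, 719 and 771 in P14, adult control, 24 h, 48 h and 96 h, with median depths of 18527 to 38922.5 UMIs. All 7 hepatocyte markers were above 20 CPM (the unit defined below) there in every library, but Alb, Apoa1 and Ttr among them were part of the rule. In leukocytes all 7 were above 20 CPM too, so this bar does not set the cells apart. The markers summed to 50966 to 198699 CPM in hepatocytes and to 1680 to 9492 CPM in leukocytes. Leukocytes numbered 252, 976, 592, 1166 and 665, with median depths of 4632 to 8560 UMIs. Free RNA was read from a plateau of shallow barcodes. It was deepest in the control library, at a mean of 1328 UMIs per barcode against 290 to 795 in the others. The control mean lay above the leukocyte minimum of 1000 UMIs, though below the median leukocyte depths. Whether cells entered that plateau was not tested, and every free RNA value of the control library rests on it. At most 2 barcodes were shared by any pair of libraries in either cell set. The control library also carries a different library code (L002) from the other 4 (L001), so that this code and being the control cannot be told apart.

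Levels are UMIs per 1000000 non-mitochondrial UMIs (CPM), summed over the cells of a library. Ratios are log2 of (CPM + 1) over (CPM + 1), and a gene was called past 2-fold when it reached 5 CPM in either library and its ratio passed 2-fold. Folds are ratios of CPM, without the added 1.

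In hepatocytes the receptor gene Osmr was higher and the receptor gene Lifr was lower after hepatectomy, while Il6ra, Il6st and Stat3 stayed within 2-fold and Socs3 was lower at each of the 3 times. At 24 h, 2 of the 6 members with at least 5 CPM were past 2-fold (Osmr higher, Lifr lower), when 15.6% of 9028 genes were. At 48 h, 3 of 6 were (Osmr higher, Lifr and Socs3 lower), when 15.9% of all genes were. At 96 h, 1 of 5 was (Socs3 lower), when 5.95% of all genes were (4.07% higher and 1.88% lower). Over 5 or 6 genes these counts say little beside such shares, and the sizes below carry the description.

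**Figure D1:**
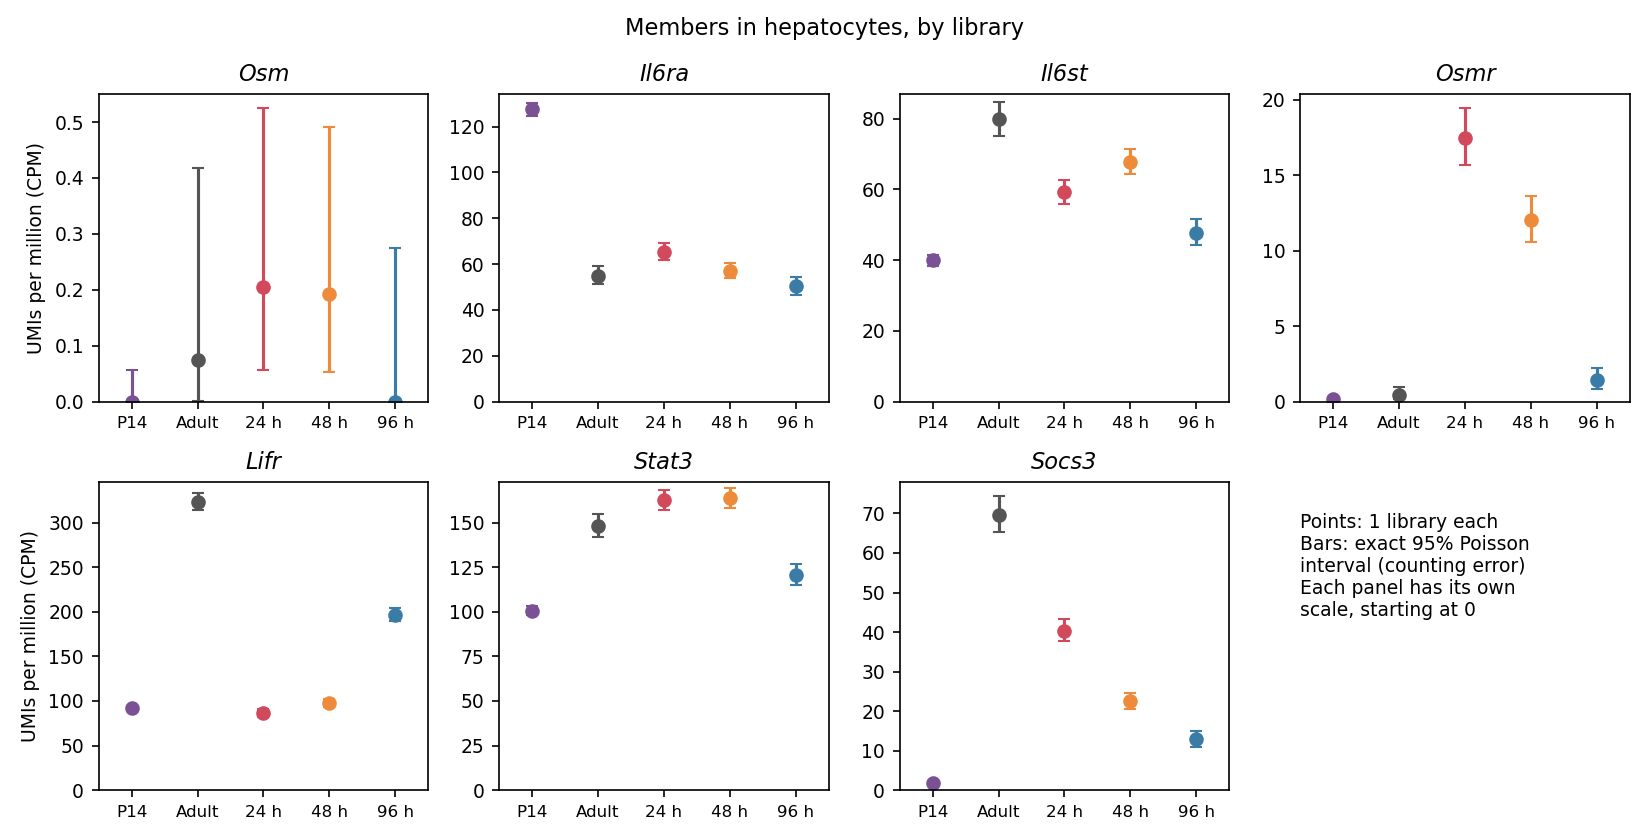
Levels of the 7 members in hepatocytes, in CPM (y axis, 1 scale per panel starting at 0), for the 5 libraries (x axis). Points are single libraries and bars are exact 95% Poisson intervals; Osmr stands at 17.5 and 12 CPM at 24 h and 48 h against 0.451 in the control library, and Lifr at 323 in the control library against 86.2 and 97.6.

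The ligand was all but missing from hepatocytes. Osm had 0 UMIs at P14, 1 in the control library, 4 at 24 h, 4 at 48 h and 0 at 96 h, which is at most 0.205 CPM. With no UMI, the floor of 3 counts is 0.0465 CPM at P14 and 0.223 CPM at 96 h. The intervals of all neighbours in the order of Osm levels included no difference. Among the other ligand genes of the family, Il6, Il11, Il27, Lif, Cntf and Ebi3 were each at or under 0.205 CPM in hepatocytes of every library, Clcf1 reached 1.18 CPM and the cardiotrophin gene Ctf1 reached 11.6 CPM at P14.

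Osmr, the subunit that gives the oncostatin M receptor its specificity, was 0.155 CPM at P14, 0.451 in the control library, 17.5 at 24 h, 12 at 48 h and 1.41 at 96 h. These levels rest on 10, 6, 341, 250 and 19 UMIs. The 24 h and 48 h libraries stood far above the other 3, whose levels were all under 2 CPM. The level at 24 h was 38.8-fold that of the control library (interval 17.6 to 106), and the level at 48 h was 26.6-fold (12.1 to 73.3). The wide intervals come from the 6 adult UMIs. From 48 h to 96 h Osmr was lower by 8.49-fold (5.32 to 14.3), and the 96 h level was still 3.14-fold that of the control library (1.205 to 9.60), at a level too low for a call. P14 and the control library, neighbours in the order, did not differ beyond counting error.

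Cell by cell, after thinning each hepatocyte to 5000 UMIs, Osmr was seen in 0.19% of hepatocytes at P14, 0.216% in the control library, 6.32% at 24 h (interval 5.00% to 7.88%), 4.45% at 48 h (3.06% to 6.23%) and 0.13% at 96 h. Before thinning the shares were 0.237%, 0.649%, 22.6%, 27.4% and 2.08%. The order of 24 h and 48 h thus turned with depth, and the CPM and the thinned shares put 24 h first. Leukocytes served as the background: 0 of 592 at 24 h and 0 of 1166 at 48 h held an Osmr UMI after thinning to 1000 UMIs, which allows up to 0.507% and 0.257%, and before thinning 7 and 2 of them did, at median depths of 5320 and 6273 UMIs.

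Osmr is also known from stellate and endothelial cells, so the markers of both were read in the same hepatocytes. The 5 stellate markers summed to 5.41 CPM in the control library, 10.6 at 24 h, 3.89 at 48 h and 11.2 at 96 h, with Col1a1 at 0 in all 5 libraries, and to 46.7 CPM at P14. The 6 endothelial markers summed to 16.0, 13.1, 9.36 and 7.37 CPM from the control library to 96 h and to 8.07 at P14. At 48 h both sums were below their values in the control library while Osmr was 26.6-fold higher; at 24 h the stellate sum was above and the endothelial sum below. Neutrophil markers summed to 11.6 CPM in the control library, 107 at 24 h, 198 at 48 h, 21.7 at 96 h and 31.5 at P14. Like Osmr they stood highest at 24 h and 48 h, but their sum was larger at 48 h and Osmr at 24 h. The part of neutrophil RNA in the Osmr levels was not tested.

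A set added after the data were seen, of barcodes under 10% mitochondrial UMIs, did not show this pattern. These barcodes held at least 5000 UMIs, at least 1% of them from Alb, Apoa1 and Ttr, and under 3 UMIs of Ptprc, Coro1a and Laptm5. The last bound was not part of the hepatocyte rule. Their median depths, 6078 to 9718 UMIs, were below those of the hepatocytes described above. They numbered 103, 139, 326, 172 and 639 and held 0, 1, 9, 1 and 1 Osmr UMIs, which is 2.503 CPM at 24 h and 0.389 CPM at 48 h. The log2 ratio over their adult counterparts was 0.79 at 24 h and -0.54 at 48 h. Their hepatocyte markers summed to 30583 CPM at 24 h against 50966 in the hepatocytes described above. Within the hepatocytes Osmr was 12.8, 16.7 and 22.2 CPM at 24 h for mitochondrial shares of 10% to 20%, 20% to 25% and 25% to 30%, and 14.2, 10.8 and 11.9 CPM at 48 h. The level therefore stood over 10 CPM in every such range at both times. The part of the mitochondrial share in the result was not tested.

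Lifr, the receptor subunit for leukemia inhibitory factor that also takes part in some oncostatin M complexes, ran the other way. It was 91.7 CPM at P14, 323 in the control library, 86.2 at 24 h, 97.6 at 48 h and 197 at 96 h. The control library was highest and 96 h next, and P14, 24 h and 48 h lay close together at under 100 CPM. Lifr was lower than in the control library by 3.75-fold at 24 h (3.54 to 3.97), 3.31-fold at 48 h (3.14 to 3.49) and 1.64-fold at 96 h (1.56 to 1.72). From 48 h to 96 h it was 2.02-fold higher (1.90 to 2.14), and it and Osmr were the 2 of 6 members past 2-fold in that step, when 8.62% of all genes were (4.38% higher and 4.24% lower). From 24 h to 48 h 0 of 6 members were, when 3.54% of all genes were (1.78% higher and 1.76% lower).

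The share of hepatocytes with a Lifr UMI after thinning followed the same order: 68.1% in the control library, 49.2% at 96 h, 33.7% at 48 h, 30.1% at P14 and 28.5% at 24 h. Unthinned, it was 94.7%, 87.3%, 87.9%, 87.4% and 68.7%. Lifr held its direction in each range of mitochondrial share, and in the barcodes with under 10% the log2 ratio at 48 h was -1.86 beside -1.72 in the hepatocytes described above. Free RNA of the control library was also rich in Lifr, at 278 CPM, but amounted to 7.89% of the Lifr UMIs per hepatocyte there and to at most 2.45% in the other 4 libraries.

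Il6st, which encodes the shared subunit gp130, was 40.0 CPM at P14, 79.8 in the control library, 59.2 at 24 h, 67.7 at 48 h and 47.8 at 96 h. The control library was highest and P14 lowest. The largest difference from the control library after hepatectomy was at 96 h, at 1.67-fold lower (1.51 to 1.85), short of 2-fold. All 4 neighbouring pairs in the order of these levels differed beyond counting error.

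Il6ra, which encodes the interleukin-6 binding chain, was 127 CPM at P14, 55.0 in the control library, 65.4 at 24 h, 57.2 at 48 h and 50.3 at 96 h. P14 stood apart, and the 4 adult libraries lay between 50.3 and 65.4 CPM. The 24 h level was 1.19-fold that of the control library (1.08 to 1.30). The control library did not differ beyond counting error from 48 h or from 96 h.

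Stat3, the transcription factor these receptors share, was 101 CPM at P14, 148 in the control library, 163 at 24 h, 164 at 48 h and 121 at 96 h. It was 1.10-fold the adult level at 24 h (1.04 to 1.16) and at 48 h (1.04 to 1.17), and 1.23-fold lower at 96 h (1.15 to 1.31). The 24 h and 48 h levels did not differ beyond counting error. These are transcript levels, and phosphorylated STAT3 was not measured.

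Socs3, the feedback inhibitor and a STAT3 target itself, was 1.90 CPM at P14, 69.7 in the control library, 40.4 at 24 h, 22.5 at 48 h and 12.9 at 96 h, on 123, 928, 788, 468 and 173 UMIs. The control library was highest and each later time was lower than the one before. Relative to the control library Socs3 was lower by 1.73-fold at 24 h (1.57 to 1.90), 3.102-fold at 48 h (2.77 to 3.47) and 5.41-fold at 96 h (4.598 to 6.40). The thinned share of hepatocytes with a Socs3 UMI went the same way, at 21.1% in the control library, 13.9% at 24 h, 9.46% at 48 h, 5.45% at 96 h and 0.807% at P14, against unthinned shares of 57.1%, 45.6%, 41.6%, 19.1% and 5.70%. In the barcodes with under 10% mitochondrial UMIs the log2 ratios were -2.14, -2.35 and -3.07 at the 3 times, beside -0.77, -1.59 and -2.35 here, so that Socs3 passed 2-fold there at 24 h as well.

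Socs3 is an early response gene, so genes known to respond to tissue dissociation were set beside it, from a list of 12 chosen after the values were seen. Their sum was 399 CPM at P14, 610 in the control library, 539 at 24 h, 672 at 48 h and 844 at 96 h. Of these genes the heat shock gene Hspa1b was 52.3 CPM in the control library against 10.5, 5.28 and 19.5 at the 3 times after hepatectomy, and the phosphatase gene Dusp1 was 81.9 CPM against 35.1, 39.7 and 57.6. The immediate early gene Fos was 31.5 CPM in the control library against 50.9, 66.3 and 70.9. Some of the list was thus highest in the control library, as Socs3 was, and some was lowest there among the 4 adult libraries, and the part of dissociation in the Socs3 levels was not tested.

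P14 hepatocytes differed from the control library in 3 of 5 members (Il6ra higher, Lifr and Socs3 lower), when 21.7% of 9011 genes did (7.89% higher and 13.8% lower). Il6ra was 2.32-fold higher (2.15 to 2.501), Lifr 3.52-fold lower (3.39 to 3.66) and Socs3 36.6-fold lower (30.3 to 44.5). Il6st was lower by 2.00-fold (1.86 to 2.15) and missed the call with a log2 ratio of -0.98. The median of all genes was -0.26 in this comparison, and trimmed-mean scaling moved it by 0.33, so that the log2 ratio of Il6ra (1.197) stands further and those of Lifr (-1.81) and Socs3 (-4.605) less far from the bulk of genes than from 0.

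Within each library hepatocytes were split into tertiles by zone score, the share of pericentral among pericentral and periportal transcripts of 16 genes. These are ranges of a score, set anew in each library, and not cell types. Lifr was 257, 328 and 381 CPM from the periportal to the pericentral tertile in the control library, and 132, 194 and 249 CPM at 96 h. At P14 it was 70.8, 88.4 and 116 CPM. At 48 h the same tertiles held 84.3, 101 and 107 CPM, and at 24 h 84.5, 89.7 and 84.2 CPM. Lifr was thus highest in the pericentral tertile in 4 of the 5 libraries, though at 48 h by little over the middle one. The periportal interval at 24 h (77.6 to 91.8 CPM) held the values of the other tertiles, so no order was read there.

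**Figure D2:**
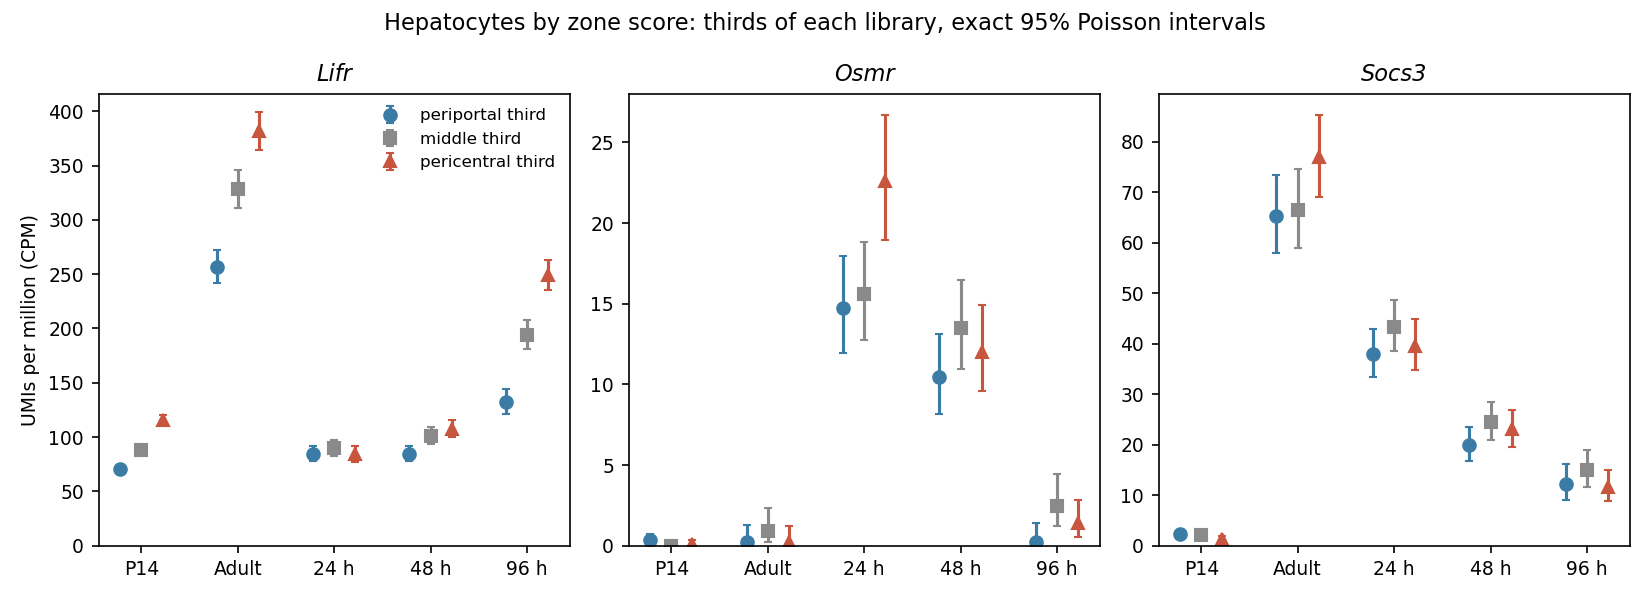
Lifr, Osmr and Socs3 in CPM (y axis, starting at 0) in the periportal, middle and pericentral tertile of hepatocytes in each library (x axis), with exact 95% Poisson intervals. Lifr steps up from periportal to pericentral at P14, in the control library and at 96 h (132, 194 and 249 CPM), while at 24 h no order was read.

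Osmr at 24 h was 14.7 CPM in the periportal, 15.6 in the middle and 22.6 in the pericentral tertile, where the pericentral interval (18.96 to 26.7) lay above the periportal one (11.95 to 17.98). At 48 h the tertiles held 10.4, 13.5 and 12.02 CPM. The 74 hepatocytes with an Osmr UMI after thinning at 24 h had a median pericentral share of 45.6% against 29.9% in the rest, and at 48 h 32 such hepatocytes had 43.8% against 45.3%. The Socs3 tertiles held 65.3, 66.4 and 76.9 CPM in the control library and 38.0, 43.4 and 39.6 CPM at 24 h.

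Hepatocytes with at least 3 of 15 mitosis genes were set against those with none. At 24 h Osmr was 22.2 CPM (16.8 to 28.8) in the 124 mitotic hepatocytes and 15.2 CPM (13.2 to 17.5) in the others, and at 48 h it was 13.5 CPM (11.2 to 16.2) and 10.9 CPM (8.73 to 13.4). The ratio of each pair was not tested. Lifr was lower in the mitotic hepatocytes, at 71.0 against 90.6 CPM at 24 h, 87.7 against 108 CPM at 48 h, 149 against 198 CPM at 96 h and 70.0 against 96.0 CPM at P14, and none of these 4 pairs of intervals overlapped. Socs3 was 22.9 against 22.4 CPM at 48 h. The control library held 4 mitotic hepatocytes, too few for a value.

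The rest of the pathway was read from a list of 31 further genes of the family, of which 20 reached 5 CPM in each comparison with the control library. In hepatocytes 0 were past 2-fold higher and 6 lower at 24 h, when 8.51% and 7.13% of all genes were. The counts at 48 h were 0 and 4, beside 8.3% and 7.63%. The list's median log2 ratio was -0.43 at 24 h and -0.37 at 48 h, beside -0.00 and -0.08 over all genes. At 96 h 0 were past 2-fold higher and 1 lower, when 4.07% and 1.88% of all genes were, and the median was -0.10 beside 0.041 over all genes. At P14 2 were higher and 6 lower, when 7.89% and 13.8% of all genes were, and the median was -0.50 beside -0.26.

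The kinase genes Jak1, Jak2 and Tyk2 and the transcription factor gene Stat2 all stayed within 2-fold in the 3 comparisons. Of the 6 lower genes at 24 h, 4 (Cish, Socs1, Socs2 and Socs7) belong to the same inhibitor family as Socs3. These were also the 4 at 48 h, and Stat5b and Pias3 were the others at 24 h. Not all of the family was lower: Socs4 and Socs6 stayed within 2-fold, with log2 ratios of -0.32 and 0.24 at 24 h. Socs5 was under 5 CPM. Cish, an inhibitor induced by STAT5, was 50.8 CPM in the control library, 10.5 at 24 h, 2.83 at 48 h and 41.3 at 96 h. Socs2, another STAT5 target, was 34.6, 12.3, 14.9 and 19.8 CPM over the same libraries and 168 CPM at P14. Stat5b, the gene for a growth hormone responsive transcription factor, was 39.4, 16.8, 19.8 and 29.0 CPM. Socs1, which was picked out after its values were seen, was 9.99 CPM in the control library and at most 0.48 CPM in each of the other 4 libraries.

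Most STAT3 targets were above the control library at 24 h and 48 h, when Socs3 was below it. The list of 32 targets was chosen with earlier results of these data known, so its counts are a description and no test of the pathway. Of the 31 with at least 5 CPM, 18 were past 2-fold higher in hepatocytes at 24 h and 1 was lower. The shares of all genes were 8.51% and 7.13%. The counts at 48 h were 15 higher and 2 lower of 30 targets, beside 8.3% and 7.63% of all genes. Their median log2 ratio was 1.07 at 24 h and 1.01 at 48 h. At 96 h 3 were higher and 5 lower with a median of -0.28, when 4.07% of all genes were higher and 1.88% lower. From 48 h to 96 h 0 of 30 were higher and 16 lower, when 4.38% and 4.24% of all genes were. Acute-phase genes answer to interleukin-1 and glucocorticoids as well as to STAT3, and which of these acted was not measured.

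**Figure D3:**
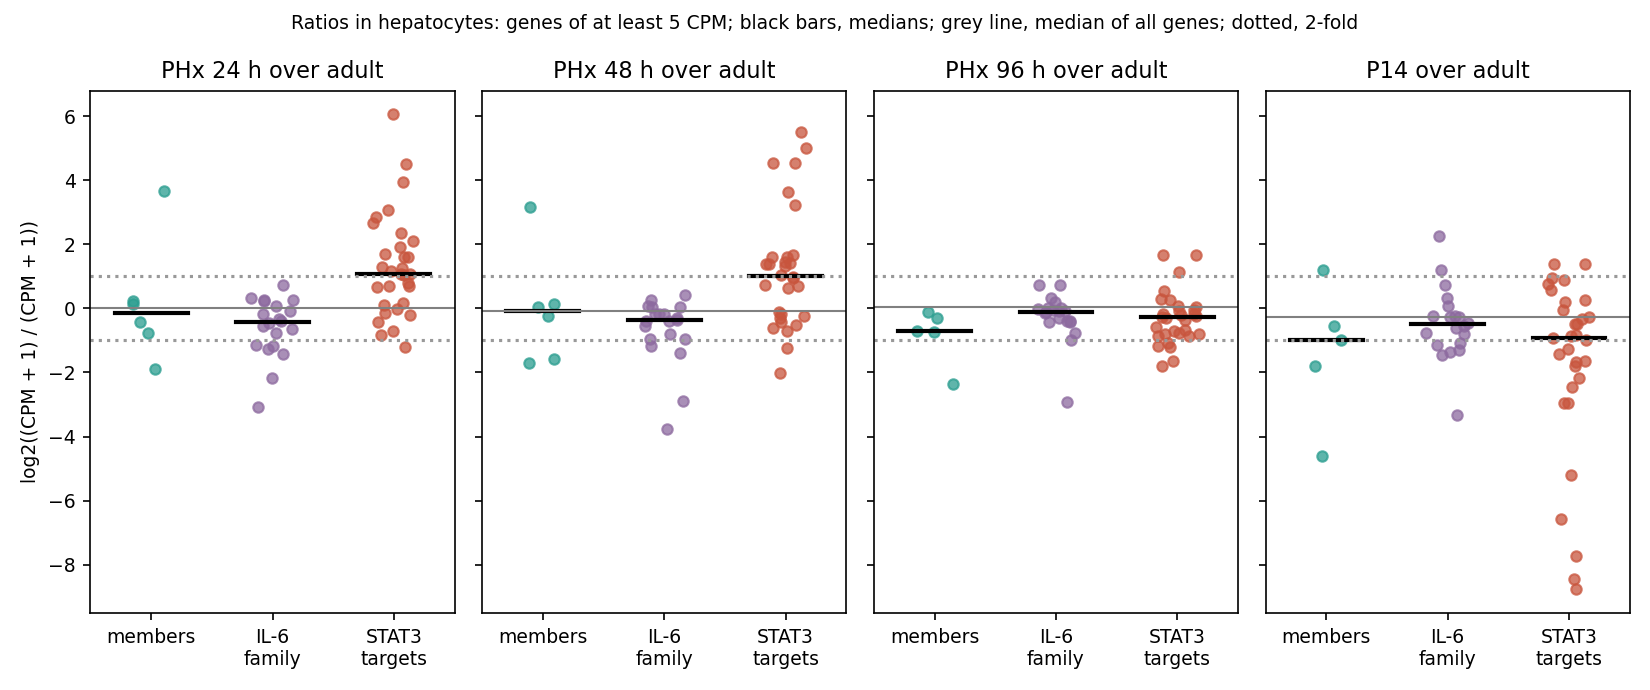
Log2 ratios over the control library in hepatocytes (y axis) for the members, the other family genes and the STAT3 targets of at least 5 CPM, 1 point per gene, in 4 comparisons. Black bars are list medians (1.07 and 1.01 for the targets at 24 h and 48 h, -0.28 at 96 h), the grey line is the median of all genes and dotted lines mark 2-fold.

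Summed over the list, the targets took 22203 CPM in the control library, 91922 at 24 h, 122082 at 48 h, 21758 at 96 h and 18724 at P14. Lcn2, which encodes the iron-chelator binding protein lipocalin 2, was 72.3 CPM in the control library, 4874 at 24 h, 3307 at 48 h and 229 at 96 h. Orm2, an orosomucoid gene, was 71.2, 1640, 2297 and 74.5 CPM. The serum amyloid genes Saa1 and Saa2 are near-identical neighbours between which reads may be split with error; Saa2 was 1365, 20968, 31492 and 856 CPM and Saa1 2029, 17157, 24977 and 879 CPM.

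Hamp, the gene for the iron hormone hepcidin, peaked at 24 h at 2188 CPM from 429 in the control library, and was 1114 at 48 h and 1371 at 96 h. Il1r1, the receptor gene for interleukin-1, was 35.7, 157, 70.4 and 28.9 CPM, and the metalloreductase gene Steap4 232, 714, 458 and 134 CPM. Those 3 were highest at 24 h. Saa3 (18.7, 124, 459 and 5.36 CPM), Orm1 (1520, 10889, 14114 and 2205 CPM) and the fibrinogen gene Fgb (3094, 6365, 9848 and 3743 CPM) were highest at 48 h. Cebpd, a transcription factor gene of the acute phase, was 7.88, 27.6, 22.6 and 3.20 CPM.

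Some targets were lower. Pim1, the 1 target past 2-fold lower at 24 h, was 66.4 CPM in the control library, 28.5 at 24 h, 27.8 at 48 h and 37.9 at 96 h. Myc, the growth-promoting transcription factor gene, was 22.3 CPM in the control library, 11.99 at 24 h, 4.80 at 48 h and 5.73 at 96 h. It was past 2-fold lower at 48 h and 96 h but not at 24 h. At P14 Saa1 (20.2 CPM), Saa2 (5.44), Orm1 (2.49), Orm2 (0.977) and Hamp (0.248) were far below the control library. Of 31 targets 14 were past 2-fold lower there and 2 (Lbp and Itih3) higher, when 13.8% and 7.89% of all genes were. Socs3 was low there too. At 24 h and 48 h, in contrast, Socs3 was below the control library while most targets were above it.

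The target genes were then summed in hepatocytes with and without Socs3. At 24 h hepatocytes with a Socs3 UMI after thinning (163) held 86658 CPM of STAT3 target transcripts, and those without (1007) held 88105. At 48 h the values were 119367 CPM in 68 and 120181 in 651, and in the control library 22226 CPM in 195 and 22665 in 730. At P14 17 hepatocytes with a Socs3 UMI held 17380 CPM (16400 to 18404) against 18470 (18378 to 18563) in the rest. At 96 h the order was the other way, with 23049.5 CPM (22304 to 23814) in 42 against 22079 (21902 to 22256) in 729, and there the dissociation genes also summed higher where Socs3 was seen, at 1194 against 794 CPM. The sum was thus higher with Socs3 at 96 h and lower in the other 4 libraries, where the separate intervals overlapped at P14, at 48 h (118041 to 120705 and 119749 to 120614) and in the control library (21886 to 22570 and 22487 to 22844). At 24 h the 74 hepatocytes with an Osmr UMI held 84785 CPM of targets (83715 to 85866) against 88115 in the rest (87830 to 88399), and at 48 h 32 held 113527 (111637 to 115442) against 120408 (119988 to 120830). At 24 h these hepatocytes also had a higher median pericentral share (45.6% against 29.9%), though not at 48 h (43.8% against 45.3%). The part of zone in these contrasts was not tested. In counts this sparse a missing UMI does not mean a missing transcript.

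Genes with the pattern most like each member were ranked by the root mean square difference of centred log2(CPM + 1) over the 5 libraries, among 9494 genes. This is a description over 5 points. Nearest to Osmr were Syt12 (0.20), Mybl1 (0.20), Slpi (0.28), Fam25c (0.29) and Reg3b (0.35), all highest at 24 h; Slpi, an antiprotease gene, was 0.300 CPM in the control library, 28.0 at 24 h, 12.1 at 48 h and 1.86 at 96 h. Nearest to Lifr were Dedd2 (0.10), AC161165.6, Tppp and Zfp36l2, and nearest to Socs3, at larger differences, Serpine2 (0.31), Ablim3, Mup15, C9 and Ttc7b. Nearest to Il6ra were Lrp5 (0.07), Col4a1, Ttc3, Adprhl2 and Eif2ak4, to Il6st Ing1 (0.07), Rfng, Poll and Ccdc186, and to Stat3 Adam17 (0.03), 2310022A10Rik, Mrrf, Trir and Atxn2l.

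In leukocytes the ligand gene Osm and the feedback gene Socs3 were both higher at 24 h and 48 h after hepatectomy. At 24 h these were the 2 of 6 members past 2-fold, when 18.4% of 10467 genes were (6.86% higher and 11.6% lower), and at 48 h again the 2 of 6, when 16.7% were (5.2% higher and 11.5% lower). At 96 h 0 of 6 were, when 10.8% of all genes were (4.72% higher and 6.03% lower). From 48 h to 96 h Osm and Socs3 were the 2 of 6 past 2-fold, both lower, when 9.23% of all genes were (6.94% higher and 2.29% lower). From 24 h to 48 h 0 of 6 were past 2-fold, when 6.06% of all genes were (1.45% higher and 4.61% lower). The median log2 ratio of all genes was -0.24 at 24 h and -0.16 at 48 h, and trimmed-mean scaling moved it up by 0.17 and 0.16.

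**Figure D4:**
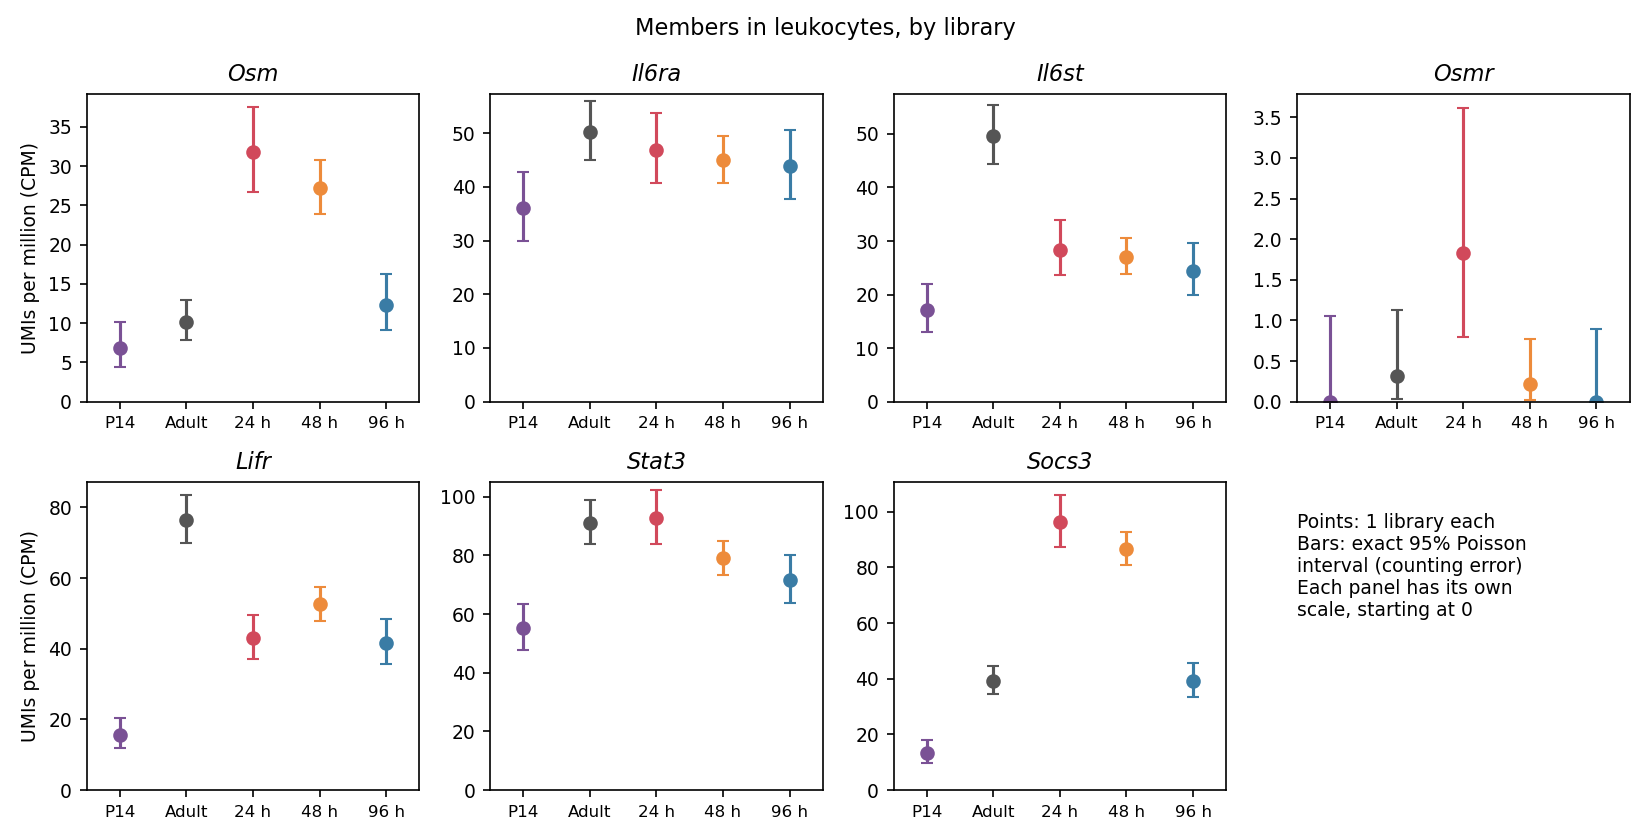
Levels of the 7 members in leukocytes, in CPM (y axis, 1 scale per panel starting at 0), by library (x axis). Points are single libraries and bars are exact 95% Poisson intervals; Osm stands at 31.8 and 27.2 CPM at 24 h and 48 h against 10.2 in the control library, and Socs3 at 96.2 and 86.5 against 39.4.

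Osm was 6.85 CPM at P14, 10.2 in the control library, 31.8 at 24 h, 27.2 at 48 h and 12.3 at 96 h, on 24, 65, 139, 255 and 51 UMIs. The 24 h and 48 h libraries stood above the other 3 and did not differ from each other beyond counting error, and neither did P14 from the control library nor the control library from 96 h. Osm was 3.14-fold the adult level at 24 h (2.32 to 4.28) and 2.68-fold at 48 h (2.03 to 3.57). The thinned shares of leukocytes with an Osm UMI were 0.794%, 1.13%, 3.21%, 1.89% and 0.602% in the order of the libraries above, and the unthinned shares 8.33%, 5.74%, 13.9%, 8.32% and 4.66%. Hepatocytes, which should lack the gene, held an Osm UMI in at most 0.139% after thinning to 5000 UMIs and in at most 0.556% before.

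Summed over the 5 libraries, most Osm transcripts came from few leukocytes, but not in the control library. The leukocytes were clustered without the members, and clusters were named from markers. Neutrophil-like barcodes, together with 2 clusters led by Il1b and Csf3r that held too few markers for a name, were 13.5% of leukocytes and held 310 of 534 Osm UMIs (58.1%). A basophil-or-mast-like cluster of 25 barcodes, led by Prss34 and Mcpt8, held 101 UMIs (18.9%). The other leukocytes held 123. In the control library the other leukocytes held 47 of 65 Osm UMIs (72.3%), and 27 of the 65 (41.5%) lay in T-like ones.

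**Figure D5:**
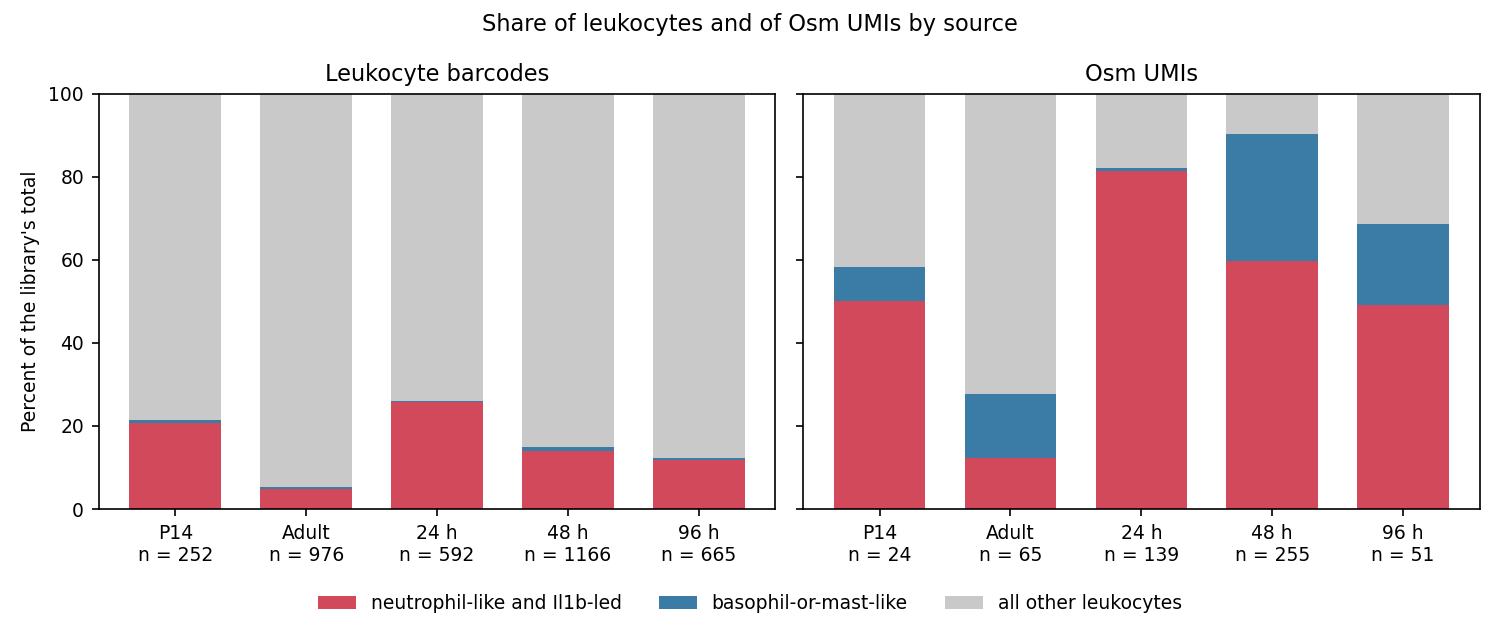
Share of leukocyte barcodes (left) and of Osm UMIs (right) in each library, in percent of the library's total (y axis), for neutrophil-like and Il1b-led clusters, basophil-or-mast-like barcodes and all other leukocytes. The neutrophil-like and Il1b-led clusters hold 25.8% of leukocytes and 81.3% of Osm UMIs at 24 h, against 4.82% and 12.3% in the control library.

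The make-up of the leukocytes differed between libraries, and P14 combined a high share of these clusters with the lowest Osm level. Neutrophil-like and Il1b-led barcodes were 20.6% of leukocytes at P14, 4.82% in the control library, 25.8% at 24 h, 13.9% at 48 h and 11.7% at 96 h, and held 50%, 12.3%, 81.3%, 59.6% and 49.02% of the Osm UMIs. At 24 h and 48 h this source was all neutrophil-like, with 123.7 CPM of Osm (102 to 149) in 153 barcodes and 88.4 CPM (74.9 to 104) in 162. An Osm UMI was seen in 40.5% and 40.1% of these barcodes. The control library held 3 neutrophil-like barcodes and no Osm UMI in them, so their level could not be compared.

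The Il1b-led clusters held 58.8 CPM of Osm at 96 h (32.1 to 98.7), 60.3 at P14 (16.4 to 154) and 52.7 in the control library (22.7 to 104). Each cluster came from 1 or 2 libraries, so that a library and a kind of cell cannot be told apart in them. At 48 h 12 basophil-or-mast-like barcodes held 78 of 255 Osm UMIs (30.6%), and 28 of the 78 came from 1 barcode.

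In an alternative added after the data were seen, neutrophil-like, Il1b-led and basophil-or-mast-like barcodes were left out. The log2 ratio of Osm over the control library was then -0.052 at 24 h and -1.002 at 48 h, against 1.56 and 1.34 with them. These clusters were known to hold most Osm UMIs at both times but not in the control library. The drop thus followed largely from the choice and is no test of where the higher level came from. Outside those clusters the T-like leukocytes held 7.48 CPM of Osm in the control library (4.93 to 10.9), 1.76 at 24 h (0.0446 to 9.81) and 4.27 at 48 h (1.39 to 9.96), and the monocyte-like ones 31.0 CPM at 24 h (14.9 to 57.1) on 10 UMIs. In the summed leukocytes, more Osm-bearing cells and more Osm per cell cannot be told apart.

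Socs3 in leukocytes was 13.4 CPM at P14, 39.4 in the control library, 96.2 at 24 h, 86.5 at 48 h and 39.2 at 96 h. It was 2.44-fold the adult level at 24 h (2.09 to 2.87) and 2.20-fold at 48 h (1.91 to 2.54), and 96 h did not differ from the control library beyond counting error. The 2-fold call at 48 h was lost in leukocytes under 5% mitochondrial UMIs (log2 ratio 0.95) and with each cell weighing the same (0.99), beside 1.12 here. In the hepatocytes of the same libraries Socs3 was lower than in the control library at all 3 times. Free RNA of the control library amounted to 27.9% of the adult leukocyte level of Socs3, and to at most 3.01% in the other libraries.

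Within the neutrophil-like class Socs3 differed by cluster. Cluster 17, led by Wfdc17, Ifitm1 and Il1r2, held 345 CPM at 24 h, 300 at 48 h and 331 at 96 h, there in 3 barcodes. Cluster 3, led by the granule genes Ltf, Ngp and Camp, held 52.4 and 76.7 CPM, and the class as a whole 278 and 163 CPM. Cluster 17 made up 134 of 153 neutrophil-like barcodes at 24 h and 94 of 162 at 48 h. The Il1b-led clusters held 263 CPM in the control library, 256 at 96 h and 271 at P14. Cluster 17 and the Il1b-led clusters thus held 256 to 345 CPM of Socs3 in the libraries given, and their share of leukocytes differed between libraries.

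Outside those clusters Socs3 levels also differed between libraries. The T-like class held 42.4 CPM in the control library (36.0 to 49.7), 52.8 at 24 h (35.6 to 75.4), 117.8 at 48 h (99.0 to 139) and 48.4 at 96 h (35.8 to 63.9). Different clusters made up the class in these libraries: clusters 9, 19 and 20 in the control library and clusters 10 and 12 at 48 h, and cluster 12 alone, led by Lef1, Trib2 and Cd4, held 365 CPM of Socs3 there against 27.8 CPM in cluster 10. Cluster 11, which is led by Hbb-bs, Cd8b1 and Cd8a and was left unnamed, lay almost wholly at 24 h and 48 h (54 and 167 of 225 barcodes) and held 118 and 154 CPM. Monocyte-like leukocytes held 46.4 CPM in the control library (17.0 to 101), 109 at 24 h (75.7 to 151) and 163 at 48 h (132 to 198). B-like leukocytes held 14.0 CPM over all libraries. Without the neutrophil-like, Il1b-led and basophil-or-mast-like barcodes Socs3 was still past 2-fold higher at 48 h but not at 24 h, where the log2 ratio was 0.50.

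The receptor genes and Stat3 were not called past 2-fold in leukocytes at any of the 3 times, though Il6st came near it at 96 h with a log2 ratio of -0.99. In leukocytes under 5% mitochondrial UMIs Il6st was past 2-fold lower at all 3 times, with log2 ratios of -1.05, -1.83 and -1.38. Free RNA was not taken off there. With free RNA taken off the leukocytes as a whole, 0 of the 17 member ratios within 2-fold, those of Il6st at the 3 times included, passed it. Il6ra was 36.0 CPM at P14, 50.3 in the control library, 47.0 at 24 h, 45.0 at 48 h and 43.8 at 96 h, and no neighbours in the order of these levels differed beyond counting error, although its ends did, with P14 lower than the control library by 1.40-fold (1.13 to 1.73). Pooled over all libraries, which differ in class make-up, Il6ra was highest in monocyte-like leukocytes, at 166 CPM. It was 73.8 CPM in neutrophil-like, 49.4 in T-like, 19.2 in B-like and 8.43 in NK-like ones. In the T-like class it was 56.8 CPM in the control library, 10.6 at 24 h (3.88 to 22.99), 33.3 at 48 h and 58.2 at 96 h, with the change of clusters given above.

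Il6st was 17.1 CPM at P14, 49.7 in the control library, 28.4 at 24 h, 27.1 at 48 h and 24.4 at 96 h. Free RNA amounted to 43.0% of the level in the control library, which was the highest level. At 24 h, 48 h and 96 h it amounted to 10.8%, 4.29% and 10.0%, so the lower levels there partly follow the free RNA of the control library. By class it was 59.1 CPM in T-like and 2.96 CPM in neutrophil-like leukocytes over all libraries, so that the class that held most of the Osm had little of the transcript for the shared receptor subunit. The control library held 560 T-like but 3 neutrophil-like barcodes, so class and library are mixed in this contrast. Osmr was near nothing in leukocytes, at 0, 2, 8, 2 and 0 UMIs. Stat3 was 55.1, 91.2, 92.8, 79.0 and 71.6 CPM in the order of the libraries.

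Lifr was 15.7 CPM at P14, 76.5 in the control library, 43.1 at 24 h, 52.5 at 48 h and 41.6 at 96 h, but free RNA amounted to 73.1% of the adult level. After free RNA was taken off, the log2 ratios over the control library turned from -0.81 to 0.69 at 24 h, from -0.53 to 0.999 at 48 h and from -0.86 to 0.44 at 96 h, so no direction was read from Lifr in leukocytes. One class held it in every library: plasmacytoid-dendritic-like (pDC-like) leukocytes had 223 CPM at P14 (136 to 344), 181 in the control library (144 to 224), 255 at 24 h (211 to 305), 312 at 48 h (280 to 346) and 239 at 96 h (192 to 295). Neutrophil-like leukocytes had 5.598 CPM over all libraries and cluster 11, led by Hbb-bs and Cd8b1, 4.12 CPM. Nearly all pDC-like barcodes of the control library lay in cluster 18 (50 of 52) and those of the other libraries in cluster 13 (66 of 67 at 24 h). The T-like cluster 9 held 594 CPM of Lifr at 48 h, in 11 barcodes, and 83.3 CPM in the control library, in 145.

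P14 leukocytes were past 2-fold lower than the control library in 3 of 6 members (Il6st, Lifr and Socs3), when 26.3% of all genes were past 2-fold (12.5% higher and 13.7% lower). Il6st was lower by 2.90-fold (2.19 to 3.89), Lifr by 4.87-fold (3.68 to 6.56) and Socs3 by 2.93-fold (2.14 to 4.09). With free RNA taken off, the log2 ratio of Lifr went from -2.21 to -0.83, within 2-fold, and that of Il6st from -1.48 to -1.01, so no direction was read from Lifr at P14 either. With each cell weighing the same, that of Socs3 went from -1.48 to -0.61, also within 2-fold.

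Of the STAT3 targets, 13 of 31 were past 2-fold higher in leukocytes at 24 h and 0 lower, when 6.86% and 11.6% of all genes were. The counts were 10 and 5 at 48 h (5.2% and 11.5% of all genes), 6 and 4 at 96 h (4.72% and 6.03%), and 2 and 14 of 30 at P14 (12.5% and 13.7%). Hepatocyte markers, which leukocytes should lack, summed to 1680 to 9492 CPM in them, and the part of free hepatocyte RNA in these counts was not tested. Of the other family genes 1 was higher and 5 lower of 22 at 24 h, and 1 and 3 of 23 at 48 h, beside the same shares of all genes. Over all 11136 genes compared, the nearest pattern to Osm in leukocytes was that of Dnajc12 (0.15) and the nearest to Socs3 that of Dusp1 (0.23), an early response gene of 83.2 CPM in the control library, 323 at 24 h and 247 at 48 h.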

How the data were processed

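The authors deposited raw UMI counts per gene and barcode for 5 libraries, with software version 3.0.2 in the matrix header, per the file headers. The submitters' processing notes name mm10, bcl2fastq 2.17.1.14, Cell Ranger and Seurat 3.1. The matrices list all 6794880 barcodes, so cells were selected here by the rules of the report; no doublet caller was run. Counts were summed per library and cell set without mitochondrial genes; Poisson and binomial intervals are exact. With 1 library per group no test was made. Ratios used a pseudocount of 1 CPM. Leukocytes were clustered with scanpy 1.11.5 (2000 variable genes without the members, 30 components, 15 neighbours, Leiden resolution 1.0), and clusters were named from at least 3 markers among 50 leading genes. edgeR 4.0.16 gave TMM factors as an alternative. Scripts were tested on simulated data. Named list genes were those of at least 20 CPM past 2-fold at 24 h or 48 h, at most 12 per list, and for each member the 5 genes of most similar pattern; a few items under these rules are not reported here. The members, lists and rules were chosen with earlier results of these data known.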

Additional observations from a re-analysis of the deposited data

Results flagged for a closer look

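Members whose hepatocytes and leukocytes lay on opposite sides of the adult control in the same comparison, each beyond counting error, are given here; the difference between the cell sets was not tested. Socs3 at 24 h had a log2 ratio of -0.77 in hepatocytes and 1.27 in leukocytes, a difference of 2.04. At 48 h it had -1.59 and 1.12, a difference of 2.71. Stat3 at 48 h had 0.14 in hepatocytes and -0.21 in leukocytes, a difference of -0.35. Free RNA amounted to 30.2% of the leukocyte level of Stat3 in the control library and to 4.496% at 48 h, and the leukocyte log2 ratio was -0.029 with free RNA taken off and -0.037 with trimmed-mean scaling. Il6ra at P14 had 1.197 in hepatocytes and -0.47 in leukocytes, a difference of -1.67; with each cell weighing the same the leukocyte ratio was 0.20.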

How the results depend on the processing

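No paired analysis was possible because each group had 1 library. Of 86 recomputed counts of members past 2-fold, 76 stayed within 1.5 times the value given. In hepatocytes the count at 24 h was 1 at a minimum of 20 CPM and 4 in barcodes under 10% mitochondrial UMIs, where that at 96 h was 4. In leukocytes under 5% mitochondrial UMIs the count was 4 at 24 h and 2 at 96 h; with CPM over all UMIs it was 1 at 96 h; with each cell weighing the same it was 4 in the 24 h library, 1 in the 48 h library and 2 in that of 96 h; and without neutrophil-like, Il1b-led and basophil-or-mast-like barcodes it was 0 at 24 h. Of 494 log2 ratios, 376 lay inside the counting interval of the fold, 115 lay outside it and 3 that were past 2-fold changed sign. That interval was computed without the added 1 CPM that the ratios hold, so a ratio could lie outside it without any change. A minimum of 20 CPM, which cannot change a ratio, still put 3 outside. The 115 are thus not all changes beyond counting error. The 3 changes of sign are given next. These were Osmr in hepatocytes at 48 h under 10% mitochondrial UMIs (-0.54), and Osm in leukocytes without the clusters just named at 24 h (-0.052) and 48 h (-1.002). The Osmr ratio rests on 1 UMI in each library, under the 5 CPM minimum. The Osm ratio at 24 h is all but level, so neither was read as a reversal. Those clusters were left out knowing that they held most Osm UMIs at both times but not in the control library. The drop in both Osm ratios thus followed largely from that choice. How many of the 115 reflect the added 1 CPM was not counted, and the cause of the others was not tested. Ratios within 2-fold could change sign too, as those of Lifr in leukocytes did with free RNA taken off. Thinning moved 59 of 70 shares of barcodes. It can only lower a share or leave it as it was, so this count follows from depth. With Alb, Apoa1 and Ttr at 5% or more, 6 and 2 hepatocytes were left at 24 h and 48 h, and no value was computed. Depth limits Osmr outside 24 h and 48 h, Osm in hepatocytes, and every leukocyte class of a few barcodes.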
